A study of Mus musculus with 18 samples.

Results

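Short 3′ fragments of mt-TR, the mitochondrial tRNA for arginine, were examined in mouse liver. A fragment was included when it kept the complete 3′ end of the mature tRNA, the added CCA, and was 40 to 50 nt long by its own sequence. Such a fragment starts past the T and A runs in which the mtDNA types of the study differ. The rule used length and end only and no read number, and it gave 11 of the 519 fragments held by the deposited table. These 11 fragments held 5550 of the 16343 reads that ended with the CCA and of the 121943 reads in all.

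Mitochondrial tRNAs are cut from long polycistronic transcripts, and an enzyme then adds the CCA that is not encoded in the gene. The mature tRNA folds into a cloverleaf, in which the anticodon sits in a loop on top of its own stem. Cuts in the anticodon loop leave a 5′ part and a 3′ part, and the 3′ part carries the CCA and the variable and T arms.

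Small RNA of liver from healthy adult female mice was sequenced in 18 libraries, 3 for each of 6 groups. The first letter of a group names its nuclear genome and the second its mtDNA, where F is FVB/NJ, C is C57BL/6J and H is C3H/HeN. FF, CC and HH were wild-type strains, and CF, CH and HC were mitochondrial-nuclear exchange (MNX) mice, in which the mtDNA comes from another strain than the nucleus. RNA of every group was pooled and pretreated with the rtStar kit, which takes away aminoacyl groups, cyclic phosphates and base methylations that block adapter ligation or reverse transcription, before QIAseq miRNA libraries were made. The labels number the libraries of a group but do not say which animals each pool held, so p-values measure the spread between these libraries, which may be technical. mtDNA C (CC and HC) could therefore be compared with mtDNA F (FF and CF) and mtDNA H (HH and CH), each in 6 libraries, and the nuclear genomes could be compared within each mtDNA. Within a type the nuclear genome and the wild-type or MNX origin cannot be told apart, and a strain with F nucleus and another mtDNA was not analysed here. The groups of mtDNA C and of mtDNA H both have nuclei C and H, whereas those of mtDNA F have nuclei F and C. Comparisons of F with C or H therefore do not separate mtDNA type from nuclear genome. The table held mt-TR reads only, so liver markers could not be examined.

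The 3 mature sequences are shown because the runs, in capitals, set where a fragment starts in each type. Sequences are 5′ to 3′, and T stands for U.
mature mt-TR, mtDNA C: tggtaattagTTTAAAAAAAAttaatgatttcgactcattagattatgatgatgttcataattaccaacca
mature mt-TR, mtDNA F: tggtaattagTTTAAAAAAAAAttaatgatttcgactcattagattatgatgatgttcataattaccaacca
mature mt-TR, mtDNA H: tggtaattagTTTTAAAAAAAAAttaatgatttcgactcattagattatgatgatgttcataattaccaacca
The mature tRNA measures 73 nt in mtDNA H, 72 nt in F and 71 nt in C. Past the runs the sequence was identical in the 3 types, so each of the 11 fragments had the same bases in every library and differed only in its start number, which was 1 higher in F and 2 higher in H than in C. The gene (mt-Tr, ENSMUSG00000064361.1) has 1 exon and lies in mm10 on chromosome M, plus strand, from 9808 to 9875, and the fragments started between 9829 and 9839.

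The fragments that mark the steps of the pattern are printed next, with the 7 nt anticodon loop in capitals.
50 nt: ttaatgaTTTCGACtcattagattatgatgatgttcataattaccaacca
48 nt: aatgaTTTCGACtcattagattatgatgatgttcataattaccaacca
44 nt: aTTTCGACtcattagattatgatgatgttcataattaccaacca
43 nt: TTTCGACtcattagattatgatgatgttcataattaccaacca
42 nt: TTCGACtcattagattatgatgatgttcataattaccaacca
41 nt: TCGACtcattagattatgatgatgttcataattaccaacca
The 50 and 49 nt fragments start between the A run and the anticodon stem. The 48 to 44 nt fragments start at stem positions 1 to 5, so that the 48 nt fragment keeps the whole 5′ strand of the stem and the 44 nt fragment only its last base. The 43 nt fragment starts at the first base of the loop and the 42 nt fragment at the second. The 41 nt fragment starts at the first base of the anticodon, TCG, and the 40 nt fragment at its second base. The table held no read under 40 nt, so starts further into the loop were not seen.

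Depth bounds what follows. Libraries held 189 to 23805 mt-TR reads of 40 to 69 nt. Of the 18 libraries, 4 held under 1000: CF replicate 3, CH replicates 1 and 2, and HC replicate 1. All 11 fragments had reads in every library, 46 to 1019 in sum. Shares are given both of all mt-TR reads of a library (the table total) and of its CCA-ended reads, since the CCA-ended reads themselves made up between 2.31% and 74.3% of a library. Neither total holds reads over 69 nt, so the full-length tRNA of 71 to 73 nt is left out. Among CCA-ended reads this limit drops more start positions in mtDNA H than in C. Intervals on shares cover counting error only.

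The loop starts were the main part of the class. The 4 fragments that start in the loop held 3593 of the 5550 reads, and between 55.7% and 86.3% of the reads of the 11 in single libraries (mean 69.1% ± 7.79, SD, n = 18). As a share of CCA-ended reads, loop starts made up 23.9% ± 4.50, the 5 stem starts 7.56% ± 2.40 and the 2 starts before the stem 3.16% ± 1.24 (SD, n = 18). In 15 of 18 libraries every loop start had more reads than any of the other 7. The exceptions were CC replicate 1, CH replicate 2 and HH replicate 3, where 3 of the 4 loop starts ranked in the top 4.

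The rise came within 1 base, between the last base of the stem and the first of the loop. The 44 nt fragment had 239 reads and the 43 nt fragment 1060, and the 43 nt fragment had more in 18 of 18 libraries. The ratio of the 43 nt to the 44 nt fragment was 4.28 in the median library and was lowest in CH replicate 3, at 1.83. In HC replicate 1 the 43 nt fragment had 41 reads and the 44 nt fragment 1. In the mean of 6 libraries the share of CCA-ended reads went from 0.851% ± 0.402 at 44 nt to 5.99% ± 2.41 at 43 nt in mtDNA C, from 1.57% ± 0.854 to 6.40% ± 2.27 in mtDNA F, and from 1.94% ± 1.12 to 8.27% ± 3.38 in mtDNA H.

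The 43 nt fragment, with the whole loop, had the highest mean of reads normalised to the table total. As a mean share of CCA-ended reads it was above the 42 nt fragment in mtDNA H, at 8.27% against 6.89%, and below it in C and F. Its values in each library follow as shares of CCA-ended reads. In mtDNA C it took 5.43%, 6.00% and 4.54% in CC and 10.6%, 5.80% and 3.61% in HC. In mtDNA F it took 7.60%, 5.59% and 5.42% in FF and 7.71%, 2.82% and 9.24% in CF. In mtDNA H it took 7.69%, 7.29% and 6.72% in HH and 13.4%, 10.8% and 3.73% in CH. The wild-type groups were narrow, and HH lay above all CC libraries, but FF overlapped both neighbours. The MNX libraries spread on both sides of them, and the 4 highest values were those of the 4 libraries under 1000 reads. The part of depth in that spread was not tested.

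The 42 nt fragment lacks the first loop base. It took 5.99%, 5.69% and 8.53% of CCA-ended reads in CC and 8.25%, 7.25% and 5.85% in HC. It took 4.84%, 8.53% and 7.78% in FF and 7.02%, 4.84% and 7.56% in CF, and 5.31%, 5.38% and 7.53% in HH and 9.82%, 6.76% and 6.55% in CH. All 6 groups overlapped, and the type means lay between 6.76% and 6.92%.

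The 41 nt fragment begins with the anticodon. Its shares were 4.57%, 4.24% and 5.44% in CC, and 7.22%, 5.31% and 5.47% in HC. They were 3.92%, 7.65% and 6.37% in FF and 4.14%, 8.06% and 4.20% in CF, and 3.34%, 4.82% and 4.37% in HH and 8.04%, 2.70% and 5.99% in CH. The HH libraries lay below all HC libraries, and every other pair of groups overlapped. The 40 nt fragment, which has lost the first anticodon base, took 4.82% ± 1.07 (SD, n = 18).

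Which loop start led differed between replicates of a group. The 43 nt fragment was highest of the 11 in 9 libraries, the 42 nt fragment in 8, and the 41 nt fragment in 1, CF replicate 2, with 20 reads. Every group had more than 1 leading start. Among all CCA-ended fragments the 43 nt one ranked first in 4 libraries and the 42 nt one in 3, and neither fell below rank 9. None of the stem or earlier starts ranked first in any library.

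Among the stem starts the 47 nt fragment, which begins at the second stem position, was alone the highest in 9 of 18 libraries and tied for the highest in 4. It made up 2.22% ± 1.03 of CCA-ended reads, against 1.52% ± 0.509 for 46 nt, 1.45% ± 0.922 for 44 nt, 1.25% ± 0.653 for 48 nt and 1.12% ± 0.619 for 45 nt (SD, n = 18). The last 4 means lie within one another's SD. Many of these shares rest on few reads, as the 47 nt fragment had 2 reads in CF replicate 2 and 99 in HH replicate 3.

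At the long end the class stops between the run and the stem. The 50 nt fragment, the longest included, held 1.89% ± 1.01 of CCA-ended reads, and the 51 nt fragment just outside, which keeps the last base of the A run, held 3.99% ± 2.06 (SD, n = 18). The 51 nt fragment was the higher in 15 of 18 libraries. The table writes some rows without the inserted bases of F and H, which touches the 50 nt fragment only. With rows read as written, the summed share of CCA-ended reads became 41.3% in FF and 40.3% in HH.

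Summed over the 11 fragments, the share of all mt-TR reads differed widely between libraries. In CC it was 3.74%, 3.53% and 0.748%, and in FF 0.988%, 2.18% and 2.29%. In HH it was 24.1%, 9.55% and 21.4%. The 3 HH libraries lay above all CC and FF libraries, which overlapped each other.

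The MNX groups were less even. In HC the summed share was 18.96%, 3.88% and 2.80%, in CF 16.1%, 2.88% and 24.3%, and in CH 28.3%, 24.6% and 11.3%. CH overlapped HH, whereas CF lay above every FF library and HC above CC only in 2 of its libraries, replicates 1 and 2. By mtDNA the means were 5.61% ± 6.64 for C, 8.14% ± 9.75 for F and 19.9% ± 7.66 for H (SD, n = 6). Without HC replicate 1 the mtDNA C mean was 2.94% ± 1.29 (SD, n = 5), and the highest C library was then below the lowest H library. Without it the HC mean was 3.34%, and without CF replicate 3 the CF mean was 9.51% and the mtDNA F mean 4.90% ± 6.32 (SD, n = 5). The 4 libraries under 1000 reads held shares of 18.96% to 28.3%, and the other 14 held 0.748% to 24.1%.

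As a share of CCA-ended reads the same sum was far more even. It ranged from 27.4% in CF replicate 2 to 48.2% in CH replicate 1, a ratio of 1.76, whereas the share of all mt-TR reads ranged over a ratio of 37.8. The 95% Wilson interval of CH replicate 1, which had 112 CCA-ended reads, was 39.2% to 57.4%. Group means were 33.2% ± 1.91 in CC, 30.8% ± 4.44 in HC, 36.3% ± 3.90 in FF, 33.3% ± 5.63 in CF, 35.4% ± 3.02 in HH and 38.7% ± 9.36 in CH (SD, n = 3). All 6 groups overlapped in range. These sums were given no test, because the fragments were chosen with results of these data known.

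The comparison of mtDNA C with mtDNA H asks whether fragment levels go with the mtDNA type. Relative to all mt-TR reads, 11 of the 11 fragments fell in mtDNA C (edgeR quasi-likelihood test, adjusted p 0.000812 to 0.0210 over 67 fragments tested). Of all fragments tested, 44.8% were called, 37.3% lower and 7.46% higher. The median log2 fold change was −2.29 for the 11 and −0.65 for all 67. All CCA-ended reads together made up 16.7% ± 18.1 of the table total in mtDNA C. They made up 22.7% ± 25.9 in F and 52.9% ± 17.3 in H (SD, n = 6). A lower share in C and F was thus not particular to the 11. The largest changes were at the stem starts, at 44 nt (log2 fold change −3.45 ± 0.70, SE, adjusted p = 0.000812 in edgeR), 45 nt (−2.85 ± 0.69, adjusted p = 0.00273 in edgeR) and 48 nt (−2.66 ± 0.67, adjusted p = 0.00328 in edgeR). These starts had few reads in some libraries, as 44 nt had 1, 1 and 7 in HC and 1, 6 and 18 in CH. The loop starts fell less, by 2.18 on the log2 scale for 43 nt (adjusted p = 0.0102 in edgeR), by 1.91 for 42 nt (adjusted p = 0.0129) and by 1.67 for 41 nt (adjusted p = 0.0210); the difference between stem and loop starts was not tested.

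The comparison of mtDNA F with mtDNA H uses the same H libraries, so it is not independent of the one with C. Its nuclei also differ, F and C against H and C. On the shared C nucleus the summed shares of all mt-TR reads overlapped, at 2.88% to 24.3% in CF and 11.3% to 28.3% in CH. They were 0.988% to 2.29% in FF and 9.55% to 24.1% in HH. CF against CH was not tested. In F against H 10 of the 11 fragments fell in mtDNA F, against 41.8% of all fragments tested called, 37.3% lower and 4.48% higher. The exception was the 40 nt fragment, at −1.47 ± 0.62 (SE, adjusted p = 0.0509 in edgeR). The median log2 fold change was −2.15 for the 11 and −0.76 for all 67. The 48 nt fragment (−2.77 ± 0.67, SE, adjusted p = 0.00358 in edgeR), the 46 nt fragment (−2.41 ± 0.66, adjusted p = 0.00629 in edgeR) and the 44 nt fragment (−2.29 ± 0.66, adjusted p = 0.00924 in edgeR) led. The 48 nt fragment had few reads in mtDNA F, with 1, 7 and 2 in FF and 15, 2 and 1 in CF. The 43 nt fragment fell by 2.23, the 42 nt fragment by 1.86 and the 41 nt fragment by 1.73 on the log2 scale.

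How much of these falls is called depends on the scaling. With TMM scaling the median of all 67 fragments moved to 0.40 for C against H, the calls among all fragments were 22 higher and 15 lower, and 8 of the 11 fragments were called lower. With DESeq2 the median moved to 1.499, the calls were 35 higher and 5 lower, and 1 of the 11, the 44 nt fragment, was called lower. Relative to the median of all fragments, the median of the 11 was −1.64 with the table total, −1.81 with TMM and −2.04 with DESeq2. For F against H the calls were 18 higher and 16 lower with TMM, and 28 higher and 2 lower with DESeq2, with 7 and 1 of the 11 called lower. Among libraries with 1000 reads or more, CH kept replicate 3 only. In the 14 libraries with 1000 reads or more, 10 of the 11 fell in C against H and 3, the 44, 46 and 48 nt stem starts, in F against H.

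Between mtDNA C and mtDNA F none of the 11 fragments was called, 0 also at an unadjusted p under 0.05, and 1.49% of all fragments tested were called in edgeR. DESeq2 and TMM scaling called 0 of the 11 too. Log2 fold changes were 0.06 ± 0.64 for 43 nt, −0.05 ± 0.61 for 42 nt and 0.06 ± 0.58 for 41 nt (SE). A log2 difference of 1 lies within 2 SE of each of them. The nuclei were C and H in mtDNA C but F and C in mtDNA F, so mtDNA type and nuclear genome are not separated here.

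Measured against the CCA-ended reads, most of the difference between types was not called. In C against H 1 of the 11 fell, the 44 nt fragment that ends the stem (log2 fold change −1.18 ± 0.43, SE, adjusted p = 0.0269 in edgeR), while 56.7% of all fragments tested were called, 53.7% higher and 2.99% lower. In F against H 1 of the 11 fell, the 48 nt fragment that starts the stem (−0.94 ± 0.36, SE, adjusted p = 0.0410 in edgeR), while 44.8% of all were called, 41.8% higher and 2.99% lower. The median log2 fold change of the 11 was −0.43 and −0.17 in these comparisons, against 1.59 and 1.16 for all 67. The 67 include fragments without the CCA, which are no part of this total. Their ratio to it rises where CCA-ended reads are fewer, as in C and F, so they are no like background for the 11. The adjustment ran over all 67, so both adjusted p-values depend on those calls. Unadjusted p in edgeR was 0.0140 for 44 nt and 0.0171 for 48 nt. Adjustment over the 11 alone was not made. In C against F 0 of the 11 were called, 0 at an unadjusted p under 0.05, with 2.99% of all fragments called in edgeR.

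Neither of these single calls held throughout. The 44 nt call in C against H was lost with any of 7 libraries left out (CC replicates 1 and 3, CH replicate 2, HC replicates 1 and 2, HH replicates 1 and 3), and without CH replicate 3 the 47 nt fragment was called as well. The 48 nt call in F against H was kept only without CF replicate 1, CH replicate 2, FF replicate 2, HC replicate 1 or HC replicate 3, and was lost without any of the other 13 libraries. Both were lost when the filter on low counts was dropped, and when libraries under 1000 reads were left out. By group the 44 nt share of CCA-ended reads was 0.258% to 0.871% in HC and 1.09% to 1.29% in CC. The CC range overlapped HH, at 1.12% to 1.81%, and CH, at 0.893% to 4.05%. For 48 nt it was 0.230% to 1.03% in FF and 0.806% to 1.73% in CF. The CF range overlapped HH, at 1.56% to 2.08%, and CH, at 0.676% to 1.92%.

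Within mtDNA F the nuclear genomes F and C were compared, in FF against CF. Relative to all mt-TR reads 7 of the 11 fragments fell in FF, and 34.3% of all fragments tested were called lower, with 0.0% higher. They were the 4 loop starts and the 44, 48 and 49 nt fragments. The largest were 48 nt (log2 fold change −3.82 ± 0.98, SE, adjusted p = 0.00451 in edgeR), 44 nt (−3.59 ± 0.97, adjusted p = 0.00585) and 43 nt (−3.36 ± 1.01, adjusted p = 0.0109). The first 2 rest on few reads. The 48 nt fragment had 1, 7 and 2 in FF and 15, 2 and 1 in CF, and the 44 nt fragment 5, 15 and 1 in FF and 18, 3 and 3 in CF. The median of the 11 was −2.46 against −1.23 for all 67. The count fell to 0 without CF replicate 1, 2 without CF replicate 3 or FF replicate 1 and 4 without FF replicate 2, and DESeq2 called 0 of the 11 and TMM scaling 1. Among all fragments the calls were 1 higher and 7 lower with TMM and 6 higher and 0 lower with DESeq2. Against the CCA-ended reads 0 of the 11 were called and 10.4% of all fragments tested were, with 1 of the 11, the 45 nt fragment, at an unadjusted p under 0.05.

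Within mtDNA C, HC against CC gave no call relative to all mt-TR reads, with 0.0% of all fragments tested called in edgeR. The 4 loop starts were at an unadjusted p under 0.05, among 14 of the 67 fragments, with log2 fold changes from 1.82 for 40 nt to 2.25 for 43 nt. Without HC replicate 1 these were 0.82 for 40 nt, 0.80 for 41 nt, 0.65 for 42 nt and 0.29 for 43 nt. DESeq2 called 2 fragments, 0 of them among the 11. The other 7 had fold changes between −0.37 and 0.67. Against the CCA-ended reads 0 of the 11 were called and 1.49% of all fragments tested were, and the 48 nt (−1.41 ± 0.49, SE, adjusted p = 0.143 in edgeR) and 47 nt fragments (−1.14 ± 0.45, adjusted p = 0.166) were at an unadjusted p under 0.05.

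HC had the smallest part of stem starts among the groups. The 5 stem starts took 3.09%, 3.38% and 4.48% of its CCA-ended reads, while in the other 15 libraries they took 4.84% to 12.3%. The HC libraries lay below all the others, from 12, 7 and 36 reads. HH had the highest mean, with 8.55%, 9.65% and 12.3%, and overlapped CC, CH and FF. This sum was given no test.

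Within mtDNA H, HH against CH gave 0 calls among the 11 in edgeR for either library size, with 0.0% of all fragments called. No fragment was at an unadjusted p under 0.05 with the table total, and DESeq2 called 0. With the CCA-ended total 1 was, the 47 nt fragment at 1.04 ± 0.46 (SE, adjusted p = 0.922 in edgeR). CH replicates 1 and 2, with 191 and 232 reads, limit this comparison.

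The interaction of nucleus and mtDNA over CC, HC, CH and HH asks whether the nuclear difference is another one in each type. It was called for 0 of the 11 and 0.0% of all fragments tested in edgeR with each library size. With the table total 2 of the 11 and 7 of all 67 were at an unadjusted p under 0.05, TMM scaling called 1 fragment and DESeq2 called 2, none of the 11. With the CCA-ended total 2 of the 11 and 6 of the 67 were at an unadjusted p under 0.05, led by 47 nt at 2.18 ± 0.64 (SE, adjusted p = 0.112 in edgeR).

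The 3′ ends at these starts can be followed only as far as the lower limit of 40 nt lets reads with shorter ends stay in the table. That is 3 nt short of the mature end at the 43 nt start, 2 at 42 nt and 1 at 41 nt. Of the reads held at the starts from 50 to 41 nt, the CCA was whole in 77.5% at the 50 nt start, in 88.3% at the 43 nt start and in 91.9% at the 44 nt start. Most others ended 1 nt before the mature end, without the final A, from 6.15% at the 44 nt start to 17.8% at the 50 nt start. How these ends arose was not tested. At the 40 nt start no read with a shorter end can be held, and the shares with a whole CCA are upper limits on complete ends wherever shorter reads exist. By library only reads that ended with the CCA or 1 nt before it were taken as the total. Of these, the share at these starts that ended 1 nt before ran from 3.92% in CH replicate 1 to 36.3% in CC replicate 3. It was 24.2% ± 12.2 in CC, while the other groups had means of 6.77% to 10.1%. Taken over all starts, again among reads with either of these ends only, it was 41.8% in CC replicate 3, and the CC mean was 27.5% ± 13.5. Reads with other ends, which are most reads of CC replicate 3, are not counted. The measure over all starts includes the reads at the starts from 50 to 41 nt. In FF the mean was 10.1% at the starts from 50 to 41 nt and 14.3% over all starts. Whether the 2 measures move together was not tested. With the reads 1 nt short counted in both the sum and the total, the summed share in CC was 30.8% in place of 33.2%. The 40 nt start can add no such read to the sum, so part of that drop is built in.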

How the data were processed

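The authors trimmed reads, mapped them without gaps or mismatches to mature mt-TR of the library's own mtDNA type and collapsed them by molecular identifier; the submitters' processing notes name mm10, FastQC 0.12.1, UMI-tools 1.1.6, cutadapt 5.0, BWA 0.7.18 and Bowtie 1.3.1. They deposited 1 table of raw read counts per aligned fragment string, and its 18 columns all matched a library by name. Rows (679) were joined into 519 homologous fragments by their distance from the 3′ end and by own length, since some strings omit inserted bases; the F and H mature sequences came from the study's supplement. The stem was read from base pairing around the anticodon.

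Counts were fitted in edgeR 4.0.16 (quasi-likelihood, filterByExpr, 67 fragments kept, Benjamini-Hochberg adjustment at 0.05) over all 18 libraries, with the table total or the CCA-ended total as library size. DESeq2 1.42.0, TMM, no filter, deeper libraries, a replicate block and left-out libraries were alternatives. The edgeR fit was also run on simulated counts, read for C against H only. The planted changes were larger than those reported here, so that run does not show how reliably changes of these sizes are called. Shares are means ± SD with 95% Wilson intervals, for counting error only; a count of 0 would allow 3 reads.

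The members and lists were chosen with earlier results of these data known. All 11 are described, with library values for the 3 highest by mean normalised reads and test values for these and up to 3 called fragments per comparison. Same-numbered libraries did not deviate together (median correlation 0.00697 over 45 pairs, 0.0434 over 90 others). CH replicates 1 and 2 could not be told apart by their counts (chi-square p = 0.0893), nor could replicates 1 and 3 (p = 0.0864), and they were kept as separate libraries.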

Additional observations from a re-analysis of the deposited data

Results flagged for a closer look

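HC replicate 1 lay far from the other 5 libraries of mtDNA C in 2 of 15 gap tests made within the mtDNA types. Its summed share of all mt-TR reads was 18.96%, with a gap to the next library of 0.828 of the whole range. Its 43 nt fragment made up 10.6% of the CCA-ended reads, with a gap of 0.656. Both gaps pass Dixon's 95% critical value for 6 libraries. Chance flags about 1 in 20 groups. The library held 733 mt-TR reads, and its CCA-ended share of them was 52.9%; the part of depth in these values was not tested.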

How the results depend on the processing

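Several MNX libraries are shallow, and the counts cover mt-TR alone. Merging CH replicates 1 and 2 and reading rows as written were alternatives chosen after seeing the data. Fragments of the 11 called with the table total were 1 with DESeq2 for C against H (11 as reported, 8 with TMM or no filter, 10 in libraries of at least 1000 reads), 3 in libraries of at least 1000 reads and 1 with DESeq2 for F against H (10), and for FF against CF (7) 4 with no filter, 3 in libraries of at least 1000 reads, 1 with TMM, 0 with DESeq2 and 0 to 9 with 1 library left out. With 1 library left out C against H gave 9 to 11 and F against H 8 to 11. With the CCA-ended total, C against H (1) gave 0 with no filter or in libraries of at least 1000 reads and 0 to 2 with 1 left out. F against H (1) gave 0 with no filter, in libraries of at least 1000 reads, with CH replicates 1 and 2 merged and with the replicate block, and 0 to 1 with 1 left out. The summed share of all mt-TR reads in CH was 11.3% in libraries of at least 1000 reads. The summed share of CCA-ended reads became 30.8% in CC with reads 1 nt short counted in both the sum and the total. It became 41.3% in FF and 40.3% in HH with rows as written.

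The labels share replicate numbers, but same-numbered libraries did not deviate together. With the replicate block as a term, the table total gave 11 for C against H, 10 for F against H and 5 for FF against CF. With the CCA-ended total the block gave 1 for C against H.

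Directions turned for uncalled values near 0 and for 1 called value. The 41 nt fragment in F against H was 0.044 with DESeq2. In C against F, 43 nt was −0.62 in libraries of at least 1000 reads, −0.23 with the replicate block and −0.084 with DESeq2, 42 nt was 0.028 with TMM and 0.044 with DESeq2, and 41 nt was −0.48, −0.11 (block), −0.012 (TMM) and −0.048 (DESeq2). With 1 library left out they ran from −0.91 to 0.36, from −0.69 to 0.19 and from −0.61 to 0.29.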
